A study of Homo sapiens with 16 samples.

Results

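Mismatch repair and Okazaki fragment processing were described through a list of 8 genes (MSH3, MSH6, PMS1, PMS2, EXO1, FEN1, LIG1 and DNA2), matched to the probe sets of the array by its gene annotation. Of these 8 genes, 7 had at least 1 probe set that lists no other gene, out of 19775 genes with such a probe set. PMS2 appears only on 2 probe sets that also list its pseudogene PMS2CL, so it has no level or test of its own. Where a gene has several, the one with the highest mean signal (16 arrays) stands for it.

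The arrays hold RNA of MIA PaCa-2, an established line of pancreatic cancer cells, after 12 hours in DMSO vehicle or in 2.5 µM PP242, an inhibitor of the kinase mTOR. RNA was taken from the cytosol or from pooled gradient fractions in which mRNAs carry more than 3 ribosomes, called polysome RNA below. The 4 groups are cytosolic vehicle, cytosolic PP242, polysome vehicle and polysome PP242, each with 4 arrays. The groups share cell line, medium and duration, and nothing in the labels says whether the 4 replicates are separate cultures, so p-values measure the spread between these arrays, which may be technical. The design asks what PP242 does to the mRNAs on polysomes, what it does to those in the cytosol, and whether polysome association moves beyond the amount of mRNA.

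Mismatch repair corrects bases that DNA polymerases insert wrongly. MSH6 and MSH3 are alternative subunits of the complexes that find the error: the MSH6 complex binds base mismatches and short loops, the MSH3 complex larger loops. PMS1 and PMS2 are subunits of MutL complexes that act after recognition, and the exonuclease EXO1 removes the faulty strand. On the lagging strand, DNA is made as Okazaki fragments. FEN1 cuts the flap at the start of a fragment, DNA2, a helicase and nuclease, trims long flaps, and DNA ligase I, the product of LIG1, seals the last nick, a step that also ends mismatch repair. Expression of many replication genes rises as cells enter S phase, in part through E2F transcription factors.

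PP242 lowered the mRNAs of all 4 measured enzymes that cut or join DNA, EXO1, FEN1, DNA2 and LIG1, and that of the mismatch sensor MSH6, in both RNA pools. MSH3 and PMS1 did not pass the test in either pool. EXO1 and FEN1 fell furthest: on polysomes their signals were 18.2% and 22.4% of vehicle, and only 3 and 8 of the 19775 genes had a more negative estimate. The RNA came from whole cultures, so fewer cells in S phase and less mRNA per cell cannot be told apart. Values are log2 array signals, and an effect is the difference of 2 group means on that scale, printed with the standard error of the limma contrast (n = 4 arrays per group). A gene was called at a Benjamini-Hochberg adjusted p under 0.05 over all 19775 genes.

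**Figure D1:**
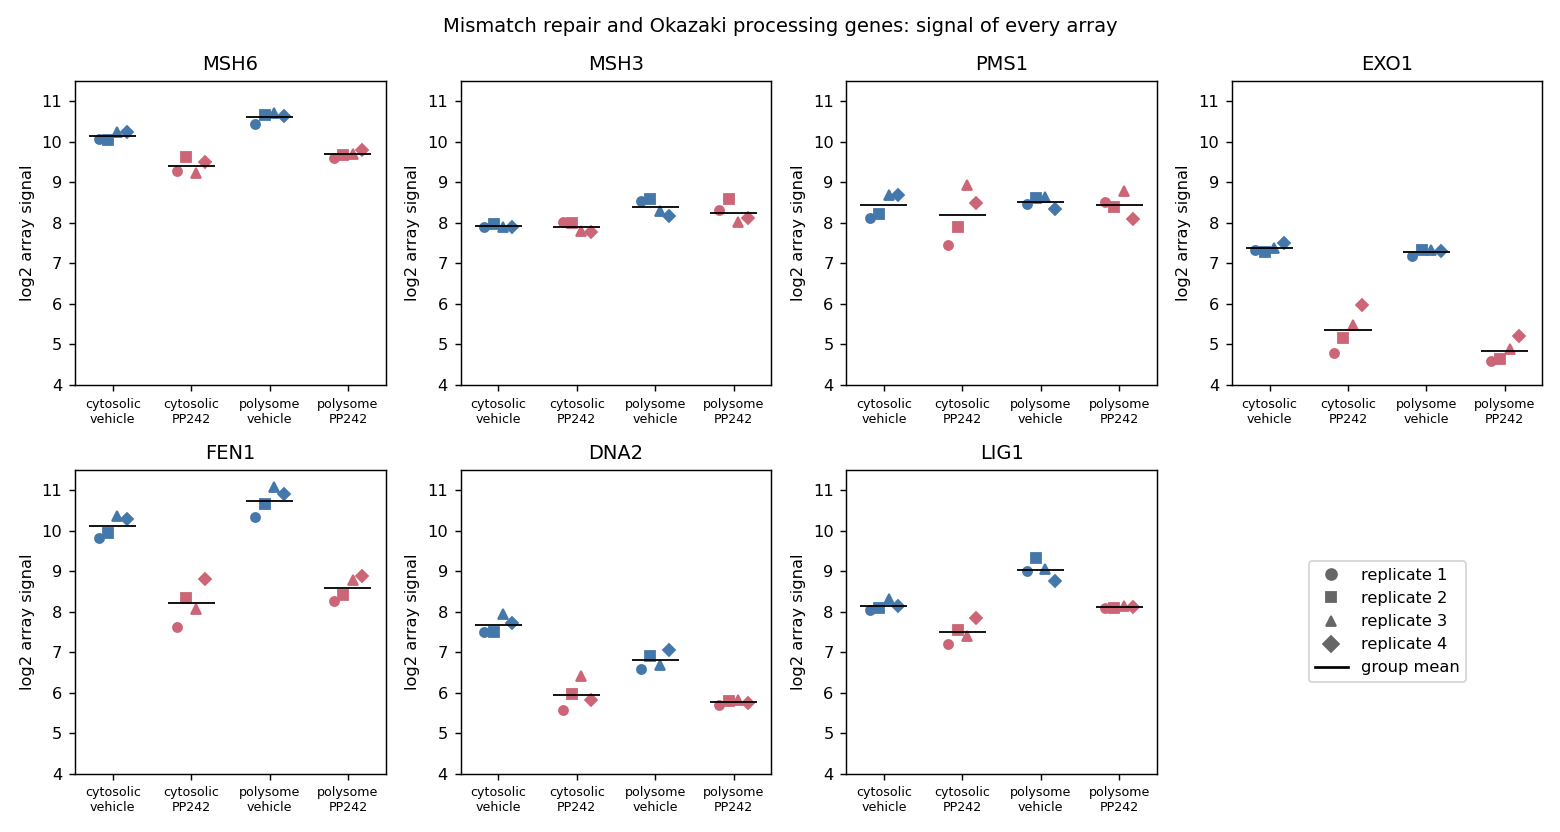
Log2 array signal of 7 genes in the 16 arrays; marker shapes are replicate numbers, blue is vehicle, red is PP242 and the black line is the group mean. The red markers lie below all blue markers of the same pool for MSH6, EXO1, FEN1, DNA2 and LIG1, and overlap them for MSH3 and PMS1.

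Start regions of 7 of the 8 genes were read from RefSeq (GRCh38.p14), from 250 bases before to 50 bases after the most upstream start in the RefSeq table of start regions. For EXO1 the RefSeq gene table begins the gene further upstream, at chr1:241847986. They were searched on both strands for E2F-type words (TTTCCCGC, TTTGGCGC, TTTCGCGC, TTTGCCGC) and for CCAAT, the box bound by NF-Y. An E2F-type word is in 5 of the 7 regions (MSH3, MSH6, PMS2, EXO1, LIG1), and in 3.34% of 27305 start regions of all genes. CCAAT is in 3 of them (MSH6, PMS1, PMS2), and in 35.7% of all. Regions are printed for EXO1, MSH6 and LIG1, which fell and hold an E2F-type word, and for PMS1, which did not pass and holds none. Those of MSH3, with such words but no call, and of FEN1, which fell without such a word, are not printed. The printed regions thus do not show how words and falls go together over the list. Capitals mark the words, written 5-prime to 3-prime on the gene's strand.
EXO1, chr1:241848197-241848226, plus strand, across the start in the table: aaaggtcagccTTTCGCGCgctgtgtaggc
MSH6, chr2:47783137-47783166, plus strand, across the start: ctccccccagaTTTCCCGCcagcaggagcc
MSH6, chr2:47782995-47783144, plus strand, before the start: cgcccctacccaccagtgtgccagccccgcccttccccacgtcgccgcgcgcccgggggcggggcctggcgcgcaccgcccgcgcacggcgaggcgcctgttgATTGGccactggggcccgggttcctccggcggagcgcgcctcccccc
LIG1, chr19:48170345-48170494, minus strand, before the start: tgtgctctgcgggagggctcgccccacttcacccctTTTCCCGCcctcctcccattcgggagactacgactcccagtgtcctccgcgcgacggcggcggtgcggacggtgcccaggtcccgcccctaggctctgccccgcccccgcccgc
PMS1, chr2:189784300-189784449, plus strand, before the start: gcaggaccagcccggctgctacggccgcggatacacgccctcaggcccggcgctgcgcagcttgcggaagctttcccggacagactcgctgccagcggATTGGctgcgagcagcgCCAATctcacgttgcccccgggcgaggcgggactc

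The words did not follow the falls gene by gene. MSH3 holds E2F-type words in its window and did not pass in either pool, while FEN1 holds none of these words in its window and fell by 2.16 on polysomes. A match is a description of letters, and a window without one says nothing about the factor. Some members start close to a gene on the opposite strand. The start of FEN1 lies 312 bases from that of TMEM258, which showed 0.22 ± 0.13 on polysomes (adjusted p = 0.333). The start of PMS1 lies 111 bases from that of ORMDL1, which showed -0.17 ± 0.11 (adjusted p = 0.437).

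The exonuclease EXO1, whose start region carries TTTCGCGC, read 7.19, 7.33, 7.33 and 7.31 in polysome vehicle (replicates 1 to 4) and 4.59, 4.64, 4.90 and 5.21 in polysome PP242. In the cytosol the vehicle arrays read 7.32, 7.29, 7.37 and 7.51 and the PP242 arrays 4.78, 5.17, 5.47 and 5.97. Every PP242 array lay more than 1 log2 unit below every vehicle array of its pool. EXO1 fell by 2.46 ± 0.19 on polysomes (limma adjusted p = 5.76e-08) and fell by 2.03 ± 0.19 in the cytosol (adjusted p = 5.81e-07), to 24.6% of vehicle. The PP242 values lie close to the median of all probe sets, which runs from 4.57 to 4.63 in polysome arrays and from 5.0 to 5.05 in cytosolic arrays, so near the low end of the scale the size of the fall can be understated.

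FEN1, the flap endonuclease, read 10.33, 10.65, 11.07 and 10.89 in polysome vehicle and 8.25, 8.41, 8.77 and 8.87 in polysome PP242. Cytosolic vehicle arrays read 9.81, 9.94, 10.37 and 10.29 and cytosolic PP242 arrays 7.63, 8.33, 8.07 and 8.81. No PP242 array reached a vehicle array, although replicates 3 and 4 averaged 0.46 to 0.49 higher than 1 and 2 in every group. FEN1 fell by 2.16 ± 0.22 on polysomes (adjusted p = 1.58e-06) and by 1.89 ± 0.22 in the cytosol (adjusted p = 7.19e-06). The fall on polysomes was 2.16 within replicates 1 and 2 and again 2.16 within 3 and 4. A further FEN1 probe set, 204768_s_at, fell too, with -2.29 ± 0.13 on polysomes and -1.85 ± 0.13 in the cytosol.

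DNA2, the nuclease for long flaps, read 6.59, 6.90, 6.68 and 7.06 in polysome vehicle and 5.69, 5.79, 5.82 and 5.74 in polysome PP242. In the cytosol it read 7.49, 7.5, 7.93 and 7.71 in vehicle and 5.56, 5.96, 6.41 and 5.82 with PP242. It is the member whose fall was larger in the cytosol (1.72 log2 units, to 30.4% of vehicle) than on polysomes (1.05, to 48.4%). DNA2 fell by 1.05 ± 0.16 on polysomes (adjusted p = 0.000131) and by 1.72 ± 0.16 in the cytosol (adjusted p = 5.26e-07).

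LIG1, the ligase that seals fragments, read 9.01, 9.32, 9.05 and 8.76 in polysome vehicle and 8.10, 8.09, 8.14 and 8.12 in polysome PP242. Cytosolic arrays read 8.03, 8.08, 8.30 and 8.13 in vehicle and 7.19, 7.55, 7.41 and 7.85 with PP242. The groups are apart in both pools, in the cytosol by 0.18 between the highest PP242 and the lowest vehicle array. LIG1 fell by 0.92 ± 0.14 on polysomes (adjusted p = 0.000127) and by 0.63 ± 0.14 in the cytosol (adjusted p = 0.00347). The cytosolic call is lost within replicates 3 and 4 alone, where the estimate is -0.58 (adjusted p = 0.127).

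MSH6, the sensor of base mismatches, read 10.45, 10.66, 10.71 and 10.63 in polysome vehicle and 9.60, 9.68, 9.70 and 9.79 in polysome PP242. In the cytosol it read 10.07, 10.04, 10.25 and 10.25 in vehicle and 9.27, 9.62, 9.24 and 9.51 with PP242. The groups did not overlap in either pool. MSH6 fell by 0.92 ± 0.11 on polysomes (adjusted p = 1.18e-05) and by 0.74 ± 0.11 in the cytosol (adjusted p = 0.000111), to 52.9% and 59.8% of vehicle.

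MSH3, the alternative partner for larger loops and 1 of the 5 genes with an E2F-type word, read 8.53, 8.60, 8.30 and 8.17 in polysome vehicle and 8.31, 8.58, 8.02 and 8.11 in polysome PP242. The cytosolic arrays read 7.91, 7.98, 7.89 and 7.89 in vehicle and 8.01, 7.99, 7.79 and 7.77 with PP242. The groups overlap in both pools. The estimates are -0.15 ± 0.13 on polysomes (95% interval -0.42 to 0.13, adjusted p = 0.595) and -0.03 ± 0.13 in the cytosol (-0.30 to 0.25, adjusted p = 0.912). Both intervals leave out a fall of the size seen for MSH6.

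The PP242 effects of some genes were set against each other by replicate number, in pairs chosen after the values were seen and so with no test. On polysomes the effect of MSH6 minus that of MSH3 was -0.63, -0.96, -0.73 and -0.78, a mean of -0.78 ± 0.14 (SD, n = 4). In the cytosol it was -0.90, -0.43, -0.91 and -0.62. MSH6 had the more negative effect at every number in both pools. FEN1 minus LIG1 ran from -1.39 to -1.01 on polysomes and from -1.41 to -1.08 in the cytosol, the flap endonuclease having the more negative effect throughout. EXO1 minus FEN1 was -0.52, -0.45, -0.13 and -0.08 on polysomes, all of 1 sign, and from -0.51 to 0.40 in the cytosol, with both signs.

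PMS1, a MutL homolog, read 8.47, 8.62, 8.64 and 8.34 in polysome vehicle and 8.51, 8.39, 8.79 and 8.10 in polysome PP242. Cytosolic vehicle arrays read 8.13, 8.22, 8.69 and 8.69 and cytosolic PP242 arrays 7.45, 7.89, 8.94 and 8.49. The groups overlap, and the cytosolic arrays split by replicate number: replicates 3 and 4 averaged 0.52 higher than 1 and 2 in vehicle and 1.04 higher with PP242. The estimates are -0.07 ± 0.24 on polysomes (95% interval -0.57 to 0.43, adjusted p = 0.921) and -0.24 ± 0.24 in the cytosol (-0.74 to 0.26, adjusted p = 0.540). The cytosolic value was -0.51 within replicates 1 and 2 and 0.03 within 3 and 4.

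**Figure D2:**
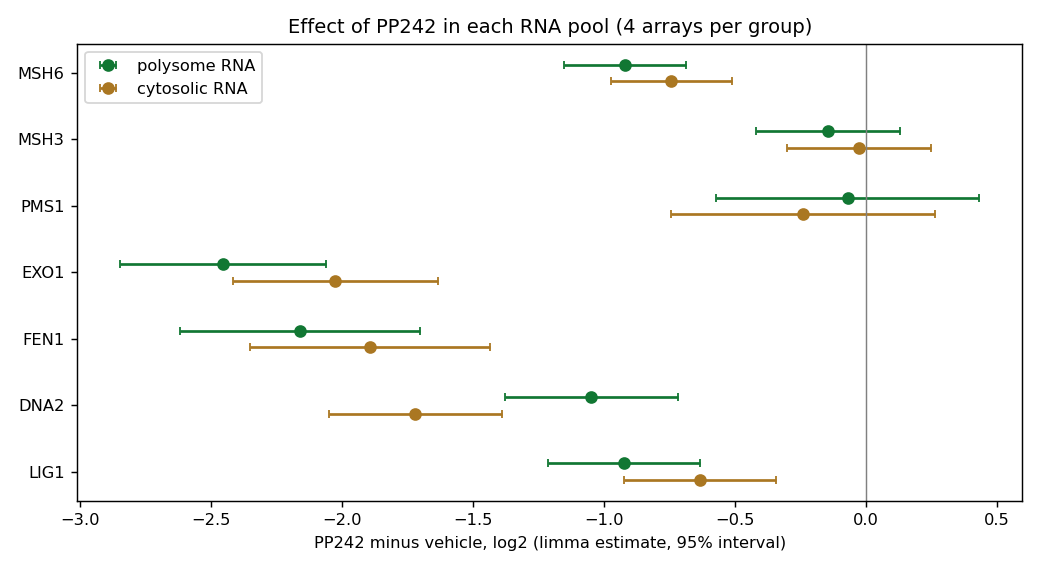
PP242 minus vehicle on the log2 scale for 7 genes, in polysome RNA (green) and cytosolic RNA (brown); points are limma estimates and bars 95% intervals, with 4 arrays per group. EXO1 and FEN1 have the most negative estimates, and the intervals of MSH3 and PMS1 cross 0 in both pools.

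In all, 5 of 7 genes fell on polysomes and 0 rose, against 6.55% of all genes called lower there and 6.82% higher. The genes were chosen with earlier results of these data known, so these counts are a description. The same 5 fell in the cytosol and 0 rose, against 7.91% and 8.54% of all genes. The groups did not overlap for these 5 genes in either pool, which held in the lower direction for 9.86% of all genes on polysomes and 8.34% in the cytosol. The median effect over the 7 genes was -0.92 on polysomes and -0.74 in the cytosol, beside -0.01 and 0.04 over all genes. By estimate on polysomes the order is EXO1, FEN1, DNA2, LIG1, MSH6, MSH3 and PMS1. Given their standard errors, EXO1 (-2.46 ± 0.19) and FEN1 (-2.16 ± 0.22) cannot be ordered. Neither can DNA2 (-1.05 ± 0.16), LIG1 (-0.92 ± 0.14) and MSH6 (-0.92 ± 0.11), nor MSH3 and PMS1.

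Whether PP242 changed polysome association beyond the amount of mRNA was read from the polysome effect minus the cytosolic effect. None of the 7 genes passed limma's test, as none of the 19775 did (0% called); at an unadjusted p under 0.05 there were 1 of 7 and 1750 of 19775. The count over all genes rests on the arrays used: without cytosolic PP242 array 3 it was 132, still with 0 of the 7, and DNA2 then had 0.83 (adjusted p = 0.0519). The pools look normalized apart, so a loss from polysomes shared by all mRNAs would not be seen. DNA2 had the value farthest from 0, 0.67 ± 0.22 (95% interval 0.21 to 1.14, unadjusted p = 0.0072, adjusted p = 0.558). It was positive for every replicate number, at 1.03, 0.43, 0.66 and 0.57. With the replicate number as a block, the DNA2 interval runs from 0.28 to 1.07 (unadjusted p = 0.00215, limma adjusted p = 0.258), and it still did not pass. A regression of polysome values on those of the same-numbered cytosolic arrays plus treatment gave a treatment term of -0.85 for DNA2 (adjusted p = 0.409). That term equals the polysome effect minus the cytosolic effect only if polysome values follow cytosolic ones unit for unit. It is thus a different quantity from the 0.67 above.

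The other genes with a PP242 fall leaned the opposite way without passing. EXO1 showed -0.43 ± 0.26 (adjusted p = 0.602), with -0.06, -0.57, -0.53 and -0.56 by replicate number. LIG1 showed -0.29 ± 0.20, FEN1 -0.27 ± 0.31 and MSH6 -0.18 ± 0.16. By replicate number LIG1 was -0.07, -0.70, -0.02 and -0.36, and FEN1 0.10, -0.63, 0 and -0.54. MSH6 was -0.05, -0.56, 0 and -0.10, so for these genes the lean lies mostly at numbers 2 and 4. FEN1 turned to 0.05 under quantile normalization over all arrays and to 0.09 without cytosolic PP242 arrays 2 and 4. Quantile normalization left EXO1 at -0.18, LIG1 at -0.14 and MSH6 at -0.04. Deviations of EXO1, FEN1, LIG1 and MSH6 from their group means correlate (r from 0.43 to 0.80), so the leans are not separate observations. MSH3 showed -0.12 ± 0.19 and PMS1 0.17 ± 0.34, with intervals from -0.51 to 0.27 and from -0.54 to 0.88. In the main fit the intervals of all genes but DNA2 span 0, so no change and changes of the sizes they cover are not excluded with 4 arrays per group. With the replicate number as a block, the EXO1 interval runs from -0.84 to -0.02 (unadjusted p = 0.042, limma adjusted p = 0.322), and the call does not change.

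**Figure D3:**
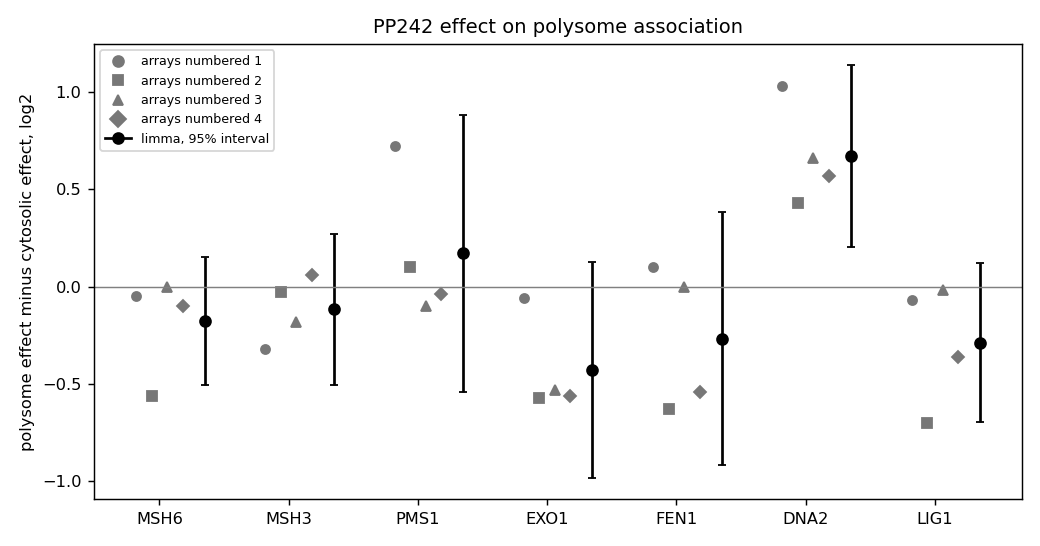
Polysome effect minus cytosolic effect of PP242 on the log2 scale; grey markers are arrays of one replicate number, black points limma estimates with 95% intervals. All 4 grey markers of DNA2 are above 0 (0.43 to 1.03) and all 4 of EXO1 below it (-0.57 to -0.06).

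Polysome over cytosolic signal describes how mRNAs are loaded relative to the others, on a scale that depends on the normalization: the median over all genes is -0.16 in vehicle and -0.18 with PP242, and 0.01 in each after cyclic loess between all arrays. In vehicle, LIG1 was 0.90 ± 0.14 higher in polysome than in cytosolic RNA (adjusted p = 3.02e-05), and MSH3 (0.48 ± 0.13, adjusted p = 0.00469), MSH6 (0.46 ± 0.11, adjusted p = 0.00189) and FEN1 (0.63 ± 0.22, adjusted p = 0.021) were higher too. DNA2 was lower, at -0.85 ± 0.16 (adjusted p = 0.000195). EXO1 (-0.08 ± 0.19) and PMS1 (0.09 ± 0.24) did not pass. So 4 of 7 were higher and 1 lower, against 16.8% and 35.9% of all genes. The calls of MSH6 and FEN1 are lost after cyclic loess (0.16, adjusted p = 0.179, and 0.39, adjusted p = 0.134), and MSH6 turns to -0.32 (adjusted p = 0.0314) with the mean of its probe sets. FEN1 is also lost in 6 of 12 refits that leave out an array or a replicate number (cytosolic vehicle array 1 or 2, polysome vehicle array 3 or 4, number 2 or 3; adjusted p from 0.0556 to 0.0975).

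With PP242, LIG1 (0.61 ± 0.14, adjusted p = 0.00108), MSH3 (0.36 ± 0.13, adjusted p = 0.0249) and MSH6 (0.28 ± 0.11, adjusted p = 0.0379) were higher in polysome RNA and EXO1 lower (-0.51 ± 0.19, adjusted p = 0.027), against 16.1% of all genes called higher and 38.1% lower. The EXO1 value cannot be told apart from a shift between the pools: with PP242 its signals lie near the medians of all probe sets, which are themselves lower in polysome than in cytosolic arrays, and after quantile normalization it is -0.14 (adjusted p = 0.571). FEN1 (0.36 ± 0.22, adjusted p = 0.168) passed with the replicate number as a block (adjusted p = 0.0205), without cytosolic PP242 array 4 (0.56, adjusted p = 0.0282) and without cytosolic PP242 arrays 2 and 4 (0.72, adjusted p = 0.0126). PMS1 was at 0.26 ± 0.24 (adjusted p = 0.385), and at 0.78 within replicates 1 and 2 alone (adjusted p = 0.00175). DNA2 was at -0.18 ± 0.16 (adjusted p = 0.355). Several of these calls hang on single arrays. MSH3 is lost in 7 of 12 refits (cytosolic PP242 array 3 or 4, polysome PP242 array 1 or 2, number 1, 2 or 4; adjusted p up to 0.11). MSH6 is lost in 8 (cytosolic PP242 array 1 or 3, polysome PP242 array 2, 3 or 4, number 1, 3 or 4; up to 0.156). EXO1 is lost in 6 (cytosolic PP242 array 3 or 4, polysome PP242 array 1 or 2, number 2 or 3; up to 0.115). MSH6 and EXO1 are lost after cyclic loess too (0.03 and -0.21). LIG1 keeps its call in all 12, but within numbers 3 and 4 alone it is lost (0.50, adjusted p = 0.0718), as are those of MSH3 (0.34, adjusted p = 0.107), MSH6 (0.42, adjusted p = 0.0671) and FEN1 (0.65, adjusted p = 0.0535) in vehicle.

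The other probe sets were used as a check, in a fit over all single-gene probe sets and those of PMS2. Of 17 probe sets that list 1 of the 7 genes alone, 10 do not stand for their gene. For MSH6, 211450_s_at fell on polysomes (-1.38 ± 0.29, adjusted p = 0.00334) and in the cytosol (-1.23 ± 0.29, adjusted p = 0.00742), while 1569034_a_at and 211449_at, with means of 3.88 and 2.59, lie under the array medians and did not pass. This MSH6 set was lower in polysome than in cytosolic RNA of vehicle cells, at -1.35 (adjusted p = 0.000736), opposite to the set that stands for the gene. For MSH3, 205887_x_at gave 0.17 ± 0.15 on polysomes (adjusted p = 0.625) and was not called in the cytosol (adjusted p = 0.993). Of the 4 further PMS1 sets, with means up to 5.28, 1554742_at passed in the cytosol (-0.54 ± 0.16, adjusted p = 0.029), and the mean of the PMS1 sets gave -0.39 there (adjusted p = 0.0225). The sets shared by PMS2 and PMS2CL gave -0.09 ± 0.10 (221206_at) and -0.16 ± 0.13 (209805_at) on polysomes, and RNA from either locus cannot be told apart in them.

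**Figure D4:**
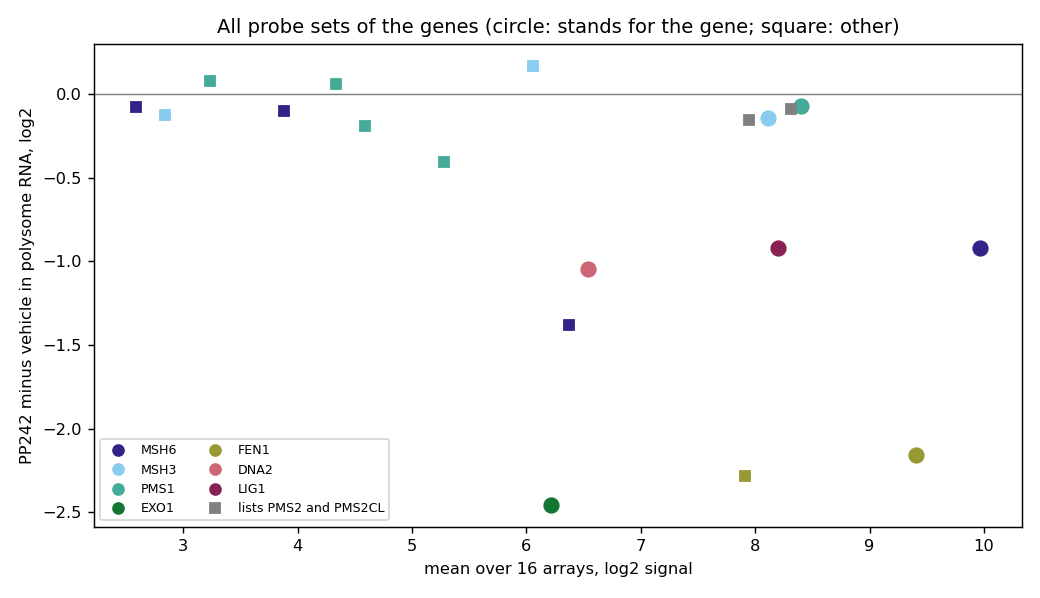
Polysome effect of PP242 (log2) against the mean log2 signal over 16 arrays for 19 probe sets; circles stand for their gene, squares are the others, grey squares list PMS2 with PMS2CL. Both FEN1 sets lie near -2.2 (-2.16 and -2.29), and sets with a mean below 5 lie between -0.19 and 0.08.

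The factors that work with the members were taken from lists of known partners. These lists and those below were chosen with earlier results of these data known, so their counts are a description. The mismatch repair and lagging-strand lists share 8 genes, among them PCNA and the polymerase delta subunits. Of 16 measured mismatch repair partners 11 fell on polysomes, 1 rose and 4 did not pass, beside 6.55% and 6.82% of all genes called lower and higher. The median was -0.89 beside -0.01 over all genes. All 11 are PCNA or subunits of the clamp loader, of polymerase delta or of the single-strand binding protein RPA. The count is thus no result about MutS or MutL homologs. The clamp loader subunits RFC5 (-1.84 ± 0.10) and RFC4 (-1.73 ± 0.11) and the sliding clamp PCNA (-1.89 ± 0.16), which tethers polymerases, EXO1, FEN1 and LIG1 to DNA, were the 3 with the smallest p. The MutL homolog MLH3 (-0.01 ± 0.15) and the meiotic MSH4 (0.06 ± 0.13) were farthest from passing. In the cytosol 11 fell and 1 rose, with a median of -0.76, beside 7.91% and 8.54% of all genes called lower and higher. They are not the same 11 genes. In the cytosol RFC1 did not pass (-0.45 ± 0.16, adjusted p = 0.0589) and HMGB1 fell (-0.53 ± 0.10, adjusted p = 0.000717).

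Of 21 measured lagging-strand partners 14 fell on polysomes, 1 rose and 6 did not pass (median -0.81), and the same numbers were found in the cytosol (median -0.75). The shares of all genes called lower and higher were 6.55% and 6.82% on polysomes and 7.91% and 8.54% in the cytosol. The primase subunit PRIM1 fell by 1.43 ± 0.11 on polysomes (adjusted p = 4.93e-08). RNASEH2A, the catalytic subunit of the RNase H2 complex that removes RNA primers, fell by 1.39 ± 0.15 (adjusted p = 2.35e-06), while its partner RNASEH2B did not pass (-0.23 ± 0.19, adjusted p = 0.529). DNA polymerase delta, which fills the gaps, was split, as seen only after the values were known. Its catalytic subunit POLD1 (-0.81 ± 0.12) and POLD3 (-1.36 ± 0.18) fell, POLD2 did not pass (-0.07 ± 0.11), and POLD4, the small subunit and the 1 riser of both lists, rose by 0.95 ± 0.20 on polysomes (adjusted p = 0.0027) and by 0.99 ± 0.20 in the cytosol (adjusted p = 0.00201).

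**Figure D5:**
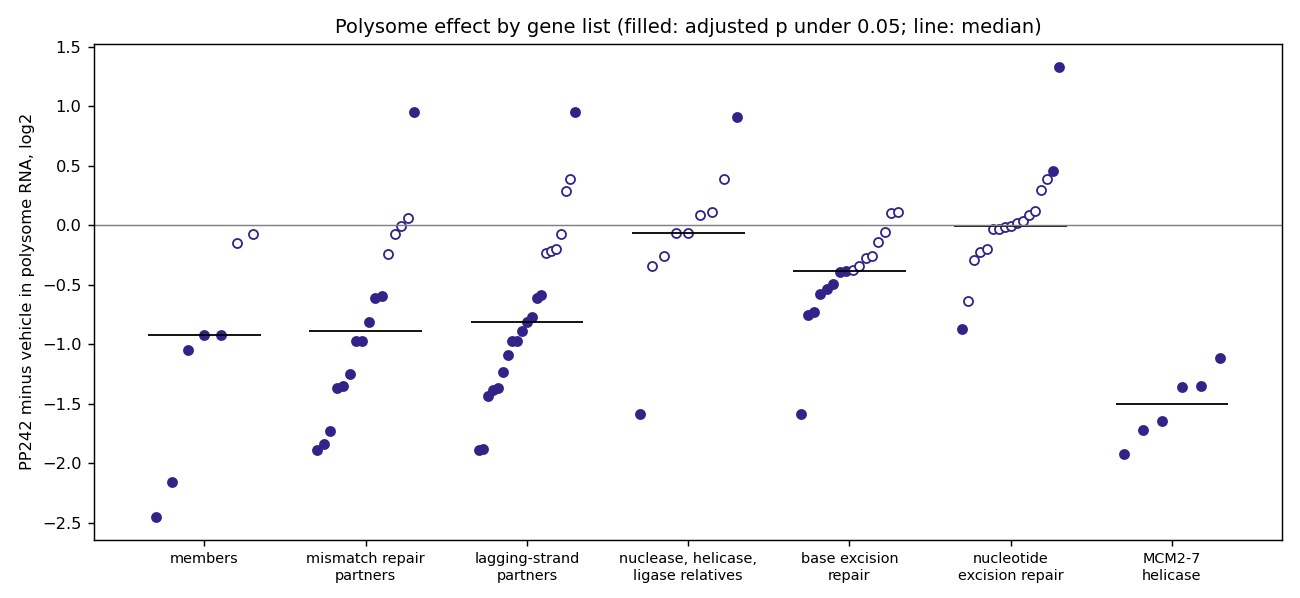
PP242 minus vehicle in polysome RNA (log2) for each measured gene of 7 lists; filled points passed at an adjusted p under 0.05 and the line is the list median. Most filled points of the members and of both partner lists lie below 0, and the nucleotide excision repair list has a median of -0.01.

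Of 9 measured nuclease, helicase and ligase relatives of the member enzymes 1 fell on polysomes, 1 rose and 7 did not pass (median -0.06), beside 6.55% and 6.82% of all genes, so these counts are no result about the relatives. In the cytosol 2 fell, BLM (-1.44 ± 0.17) and the nuclease MRE11 (-0.54 ± 0.14, adjusted p = 0.0104, named after its value was seen), and 7 did not pass (median 0.17). Of all genes, 7.91% were called lower and 8.54% higher in the cytosol. On polysomes the helicase BLM fell by 1.59 ± 0.17 (adjusted p = 4.09e-06) and the helicase HELB rose by 0.91 ± 0.23 (adjusted p = 0.00982). Among relatives by family, GEN1, a nuclease of the FEN1 and EXO1 family, showed 0.09 ± 0.24 on polysomes (adjusted p = 0.897) and -0.66 ± 0.24 in the cytosol (adjusted p = 0.0678), and on polysomes the ligases LIG3 (-0.34 ± 0.13, adjusted p = 0.0855) and LIG4 (-0.06 ± 0.15, adjusted p = 0.878) did not pass, beside -0.92 ± 0.14 for LIG1.

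Repair pathways that also work outside S phase were counted for scale. Among all genes, 6.55% were called lower and 6.82% higher on polysomes, and 7.91% and 8.54% in the cytosol. Of 16 base excision repair genes 8 fell on polysomes and 8 did not pass (median -0.38). In the cytosol 4 fell, 1 rose and 11 did not pass (median -0.07). NEIL3, a DNA glycosylase, had the smallest p (-1.59 ± 0.12, adjusted p = 6.61e-08), followed by XRCC1 (-0.58 ± 0.12) and PARP1 (-0.54 ± 0.11). SMUG1 (0.11 ± 0.13) and the polymerase POLB (-0.06 ± 0.13) did not pass. Of 17 nucleotide excision repair genes 1 fell, 2 rose and 14 did not pass on polysomes (median -0.01). These counts are near the shares of all genes and are no result about the pathway. DDB2, a sensor of UV damage, fell by 0.87 ± 0.14, and the nuclease subunit ERCC1 rose by 1.33 ± 0.23 (adjusted p = 0.000469) and ERCC6 by 0.46 ± 0.14 (adjusted p = 0.0363). XPC (-0.01 ± 0.12) and GTF2H5 (0.01 ± 0.18) lay near 0. The 6 MCM helicase genes all fell on polysomes, from -1.11 ± 0.13 for MCM6 to -1.93 ± 0.15 for MCM4 (median -1.50), and in the cytosol, from -1.03 to -1.43 (median -1.24). EXO1 and FEN1 had more negative estimates than each of them in both pools, and LIG1 and MSH6 less negative ones. DNA2 had a more negative estimate than each of them in the cytosol (-1.72 ± 0.16). The standard errors do not bear out all of this order. FEN1 cannot be ordered against MCM4, MCM3 or MCM5 on polysomes, or against MCM5 or MCM4 in the cytosol. EXO1 cannot be ordered against MCM5 in the cytosol. LIG1 and MSH6 cannot be ordered against MCM6 on polysomes or MCM7 in the cytosol, nor LIG1 against MCM7 or MCM2 on polysomes. DNA2 cannot be ordered in the cytosol against MCM5 (-1.43 ± 0.32), MCM4 (-1.39 ± 0.15) or MCM3 (-1.235 ± 0.204). On polysomes DNA2 (-1.05 ± 0.16) cannot be ordered against MCM6, MCM7, MCM2 or MCM5.

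Genes with the most similar pattern were found by Pearson correlation over the 16 arrays after subtracting each gene's mean in each pool, among 12351 other genes with a mean of at least 5. The arrays share treatment and normalization, so the values are a description. EXO1 was most like the kinase MELK (r = 0.992) and the ribonucleotide reductase subunit RRM2 (0.990), FEN1 like HSPA14 (0.995) and BARD1 (0.994), and MSH6 like RTN4IP1 (0.994) and the spindle protein PRC1 (0.991). LIG1 was most like POLD1 (0.979) and GINS4 (0.975), a subunit of the replicative helicase. DNA2 was most like DBF4 (0.985), the activator of a replication kinase, and CCDC138 (0.982). DBF4 showed -0.97 on polysomes and -1.60 in the cytosol, and CCDC138 -0.87 and -1.21. Both were picked for their likeness to DNA2 in these same arrays, so their larger cytosolic falls are no separate observation. MSH3 was most like GTF2IRD1 (0.910) and PSPC1 (0.907), and PMS1 like N4BP2L2 (0.940) and ANAPC4 (0.894).

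Across the series, the spread was widest in cytosolic PP242, with a median SD per gene of 0.245, against 0.122 to 0.159 in the other groups, and cytosolic PP242 arrays 2 and 4 received the lowest array weights (0.36 and 0.251). Without both, 5 of 7 members were again called in the cytosol. Of the markers of the line, KRT8, KRT18, KRT19 and VIM had group means from 9.29 to 14.31. Of 17 measured markers of fibroblasts, leukocytes, endothelium and normal pancreas, 15 stayed below 7 in every group, COL1A1 and COL3A1 being the exceptions (up to 7.15 and 7.56), and their part in the results was not tested.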

How the data were processed

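The authors deposited log2 signals per probe set for 16 Affymetrix arrays, summarized with RMA per the submitters' processing notes; the sources used here give neither its version nor which arrays were normalized together. Values run from 1.65 to 14.61 with 0 missing. Of 54613 probe sets, 41091 list 1 gene, 1801 several and 11721 none in the array annotation; symbols were updated by gene ID to RefSeq. The number of arrays limits the precision. limma 3.58.1 in R 4.3.3 fitted 1 mean per group over all 16 arrays, with 5 contrasts, eBayes with intensity trend, two-sided tests and Benjamini-Hochberg adjustment over 19775 genes; the fit was tested on simulated data. Printed genes are the members, 2 most similar genes each (mean of at least 5), the 3 smallest and 2 largest polysome p per list, and head-to-head neighbours; POLD1, POLD3, POLD2, POLD4 and MRE11 were added after the values were seen. Members and lists were chosen with earlier results of these data known. Same-numbered arrays deviated together in 16 of 16 pairs of compared groups (r from 0.164). In the 8 other pairs checked the lowest r was 0.0265. Arrays of different numbers were not set against each other. Pairing by number and a difference between sets of numbers thus cannot be told apart. The fit without the block is the main one, so its p-values leave out what same-numbered arrays share. Alternatives were normalization, probe set choice, block, left-out arrays, array weights, pool-only fits, trend, low-value filter and a regression for association.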

Additional observations from a re-analysis of the deposited data

Results flagged for a closer look

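In 1 of 28 groups of 4 arrays, a single array lay apart from the others: EXO1 in polysome vehicle read 7.19 in replicate 1 and 7.31 to 7.33 in the other three. The gap is 0.857 of the group's range, above Dixon's 95% limit for 4 values. Chance alone gives such a gap in about 1 of 20 groups. The gap is small beside the EXO1 fall on polysomes (2.46 on the log2 scale).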

How the results depend on the processing

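The counts of members called with PP242 were stable. On polysomes 5 of 7 were called under every alternative run. In the cytosol 5 were called, except 6 with the mean of a gene's probe sets and 4 within replicates 3 and 4 alone. For polysome association 0 members were called under every alternative; over all genes 0 were called except 132 without cytosolic PP242 array 3, 6 in the regression and 1 with the mean of probe sets. Of 230 recomputed PP242 effects of EXO1, FEN1, DNA2, LIG1 and MSH6 in either pool, 229 kept direction and call. The replicate block changed no call other than that of FEN1 in polysome over cytosolic RNA with PP242 (adjusted p = 0.0205), and raised the calls over all genes from 2644 to 4020 on polysomes and from 3253 to 4929 in the cytosol. 

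Polysome over cytosolic calls depended on the scale and on the arrays. In vehicle 5 members were called, but 3 after cyclic loess, 3 after quantile normalization, 2 within replicates 3 and 4, and 4 to 5 with an array or number left out. With PP242 4 were called, but 2 after cyclic loess, 2 after quantile normalization, 1 within replicates 3 and 4, 1 with the PP242 arrays only, and 1 to 4 with an array or number left out; the causes were not tested. Signs turned, all near 0 or uncalled unless named. After cyclic loess, polysome over cytosolic RNA turned in vehicle for PMS1 (-0.00088) and EXO1 (0.21), and with PP242 for DNA2 (0.0785). After quantile normalization it turned for EXO1 in vehicle (0.0327) and DNA2 with PP242 (0.14), and FEN1 association turned to 0.0489. With the mean of a gene's probe sets, MSH3 turned in the cytosol (0.0592), and polysome over cytosolic RNA turned for MSH6 (-0.32 in vehicle and -0.46 with PP242, both called) and PMS1 (-0.37 in vehicle, called, and -0.0865 with PP242). MSH3 in the cytosol was 0.055 within replicates 1 and 2 and 0.0094 with array weights, which gave PMS1 -0.0085 for polysome over cytosolic RNA in vehicle. Within replicates 3 and 4, PMS1 was 0.025 in the cytosol, -0.07 for association, and -0.20 and -0.27 for polysome over cytosolic RNA in vehicle and with PP242. FEN1 association was 0.0925 without cytosolic PP242 arrays 2 and 4. In the regression, whose treatment term is not the difference of the effects, the sign was negative for PMS1 (-0.054) and DNA2 (-0.85). With an array or number left out, MSH3 in the cytosol ran from -0.07 to 0.0125, and PMS1 from -0.18 to 0.0458 on polysomes, -0.49 to 0.0075 in the cytosol, -0.0775 to 0.42 for association, -0.02 to 0.23 in vehicle and -0.0133 to 0.50 with PP242 for polysome over cytosolic RNA.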
